A study of Cannabis sativa with 10 samples.

Results

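The genes described here encode the machinery that captures light and fixes carbon in the chloroplast: chlorophyll a-b binding proteins, subunits and assembly factors of photosystem I and photosystem II, oxygen-evolving enhancer proteins, and Rubisco with its activase. They were chosen by the product descriptions in the deposited table, by searching for those names and for chloroplastic plastocyanin. The search itself used no measured value, but earlier results of these data were known when it was chosen. The search found 56 of the 35192 genes listed, and no gene carried the description chloroplastic plastocyanin. Each gene was then placed in 1 of 10 roles from its description and its closest Arabidopsis protein. All libraries came from shoot apices of Cannabis sativa genotype A3, with 2 libraries in each of 5 groups. The vegetative apices had no flower induction. The female week 1 and female week 3 apices came from plants under female flower induction. The male week 1 and male week 3 apices came from plants under male flower induction, and the labels name STS as the treatment of every male library and of no other. A difference between male and female apices is therefore also a difference between STS-treated and untreated plants, and these cannot be told apart. The flowering groups are abbreviated below as F1, M1, F3 and M3, by sex and week. The labels do not say that the 2 libraries of a group came from separate plants, so the p-values measure the spread between libraries, which may be technical. Apices are mixed tissue, and fewer green cells and less RNA per green cell cannot be told apart in these values.

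As background, light-harvesting chlorophyll a-b proteins form antennas that pass excitation energy to the reaction centres. LHCA proteins serve photosystem I, trimers of LHCB1, LHCB2 and LHCB3 form the major antenna of photosystem II, and CP29, CP26 and CP24 are its minor antennas. Photosystem II takes electrons from water at a cluster shielded by PsbO, PsbP and PsbQ, and photosystem I passes electrons on to ferredoxin. Rubisco, built of a large subunit encoded in the chloroplast and a small subunit encoded in the nucleus, binds carbon dioxide, and Rubisco activase keeps it active. As a rule these transcripts are abundant in green leaf cells and low in the meristem, petals and stamens.

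The values were read as FPKM, fragments per kilobase of transcript scaled to library depth, and differences are of log2(FPKM + 1) with their standard error (SE). A gene was tested if its mean was at least 1 FPKM in at least 1 group, which held for 18309 genes and for 53 of the 56. The 3 genes not tested were LOC133037869, a CP24-like gene with its highest value of 1.22 FPKM in vegetative replicate 1, LOC133037037, which resembles the photosystem II core protein CP47 and reached 1.30 FPKM, and LOC133039687, a PsaB-like gene that did not pass 0.273 FPKM. A call is an adjusted p under 0.05 from limma with Benjamini-Hochberg adjustment over all genes tested. The depth in reads is unknown. Depth relative to F1 replicate 1 was estimated from low values at 0.862 to 1.24. Summed markers of tapetum and stamen were 9.5 to 16.4 FPKM in the vegetative, week 1 and F3 libraries and 1380 and 1851 FPKM in the M3 libraries, with all 9 markers at a mean of at least 1 FPKM there. Summed markers of carpel and ovule, 6 genes, were 107 and 132 FPKM in F3, 2.54 and 3.22 FPKM in M3 and 0.897 and 1.80 FPKM in vegetative libraries. The 3 markers of stomatal precursor cells summed to 11.8 FPKM in both vegetative libraries, 4.14 and 4.95 FPKM in F3 and 1.37 and 2.02 FPKM in M3. In replicates 1 and 2, the 4 shoot meristem markers summed to 14.4 and 11.5 FPKM in vegetative libraries. They summed to 19.4 and 25.5 FPKM in F1, 33.1 and 23.5 in M1, 27.8 and 33.7 in F3, and 17.2 and 21.3 in M3. Within this sum the marker WUSCHEL was higher in M3, at 2.66 and 5.77 FPKM, than in F3, at 0.203 and 0.403 FPKM. Each of the other meristem markers was lower in M3 than in F3. The part of these markers in the differences below was not tested.

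The 2 libraries of M1 differed widely for these genes. Replicate 2 was above replicate 1 in 51 of the 53 genes, with a median difference of 0.62 on the log2 scale, while the median over all genes tested was 0.00. In F1 the order was the reverse: replicate 2 was below replicate 1 in 53 of 53 genes, with a median difference of -0.33. The vegetative libraries differed by a median of 0.27, with replicate 2 higher in 49 genes. At week 3 the medians were -0.08 in female and 0.14 in male apices. The 4 tested genes of the plastid-encoded type differed most, with a median of 1.72 in M1 and -1.12 in F1. In M1, the summed markers of glandular trichome also differed, at 1906 FPKM in replicate 1 and 892 FPKM in replicate 2. Nearly all of it came from 1 of the 13 genes, described as olivetolic acid cyclase-like, with 1896 and 881 FPKM. The next highest markers went in opposite directions: LOC115696966 had 4.57 and 6.87 FPKM, and LOC115697762 had 4.31 and 3.23 FPKM. The glandular trichome sum was 707 and 959 FPKM in M3 and between 1184 and 2040 FPKM in the vegetative, F1 and F3 libraries. The shoot meristem markers, given above, were at 33.1 FPKM in M1 replicate 1 and 23.5 FPKM in replicate 2. The part of either marker set in the difference between the M1 libraries was not tested.

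**Figure D1:**
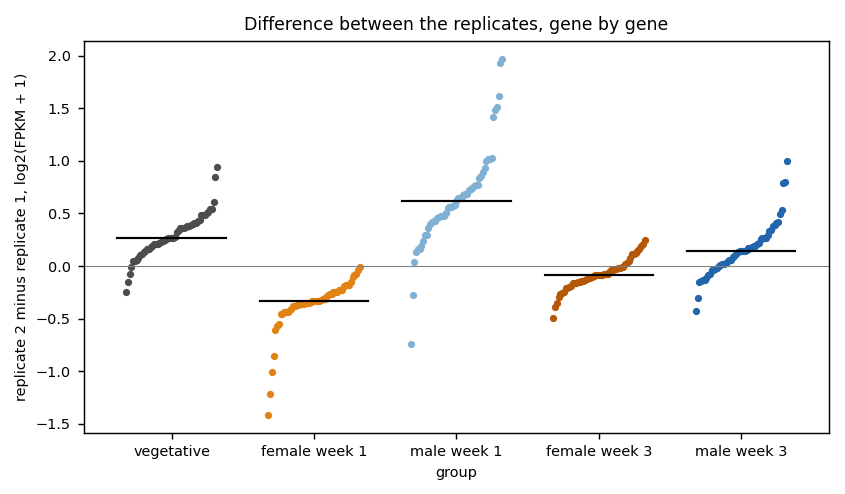
Difference between replicate 2 and replicate 1 of each group, in log2(FPKM + 1), for the 53 tested genes (1 point a gene, in order of size; the black line is the median). Male week 1 lies mostly above 0, with a median of 0.62, and female week 1 lies wholly below 0, with a median of -0.33.

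As a share of all FPKM, the 56 genes were a large part of vegetative libraries and a small part of week 3 libraries. They held 6.20% and 7.29% of the total in vegetative replicates 1 and 2, 6.63% and 5.35% in F1, and 3.40% and 5.66% in M1. They held 2.35% and 2.33% in F3, and 1.37% and 1.499% in M3. Every week 3 library was below every vegetative and week 1 library, and both M3 libraries were below both F3 libraries. The group means were 6.75% ± 0.773 (SD, n = 2) in vegetative, 5.99% ± 0.911 in F1, 4.53% ± 1.60 in M1, 2.34% ± 0.0173 in F3 and 1.44% ± 0.0892 in M3 apices. With 2 libraries a group, the smallest p that an exact permutation test allows is 0.333, so no test was made of these shares. Of the 10 genes with the highest FPKM, 3 and 4 were members of the set in the vegetative libraries and none in any week 3 library.

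**Figure D2:**
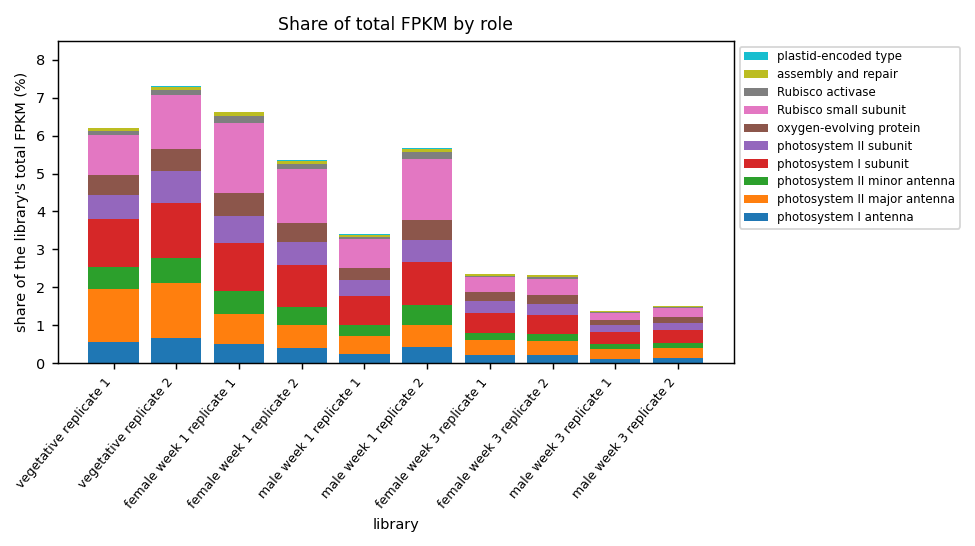
Share of the total FPKM of each library held by the 56 genes, stacked by role. The bars reach 6.20% and 7.29% in vegetative libraries and 1.37% and 1.499% in male week 3 libraries. The major antenna of photosystem II held 1.38% and 1.45% of the total FPKM in vegetative libraries. It held 0.460% to 0.777% in week 1 libraries and 0.265% to 0.417% in week 3 libraries, where the whole bars are also shorter.

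In F3 apices nearly the whole set was lower than in vegetative apices. Of 53 genes, 51 fell and none rose, with a median difference of -1.55, where 36.5% of all genes tested were called in either direction, 16.8% lower and 19.8% higher, and the median over all genes was near 0. The values of the 2 groups did not overlap for 52 genes, all lower in F3, against 34.6% of all genes. The exceptions to the call were both described as Rubisco activase: LOC115700590 with a difference of -0.53 and LOC115698235 with 0.11. In M3 apices 48 genes fell and 1 rose against vegetative apices, with a median of -1.92, where 62.8% of all genes were called, 27.9% lower and 34.8% higher, with a median of 0.05. The gene that rose was a Rubisco small subunit, LOC115725363. The 4 genes not called were both activase genes named above and the PsaA-like LOC133037471 and PsaB-like LOC133037472, the last of these named after its values were seen. These comparisons share the vegetative libraries. Leaving out each library in turn gave 39 to 53 called genes for F3 and 48 to 52 for M3.

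Fewer of these genes were called against vegetative apices at week 1 than at week 3. The called shares of the set were 15.1% in F1 and 22.6% in M1, above those over all genes given here. In F1, 7 of 53 genes fell and 1 rose, with a median of -0.14, where 4.94% of all genes were called, 2.27% lower and 2.67% higher. The median was 0.04 without F1 replicate 2, 0.00 without vegetative replicate 2 and -0.31 without F1 replicate 1, so its direction rests on single libraries. The count of called genes fell to 1 without F1 replicate 2, to 3 without vegetative replicate 2, to 4 without F1 replicate 1 or without either F3 library, and to 5 without vegetative replicate 1 or either M3 library. In M1, 12 genes fell and none rose, with a median of -0.50, where 6.4% of all genes were called, 2.86% lower and 3.54% higher. That count was 29 without M1 replicate 2 and 5 without vegetative replicate 2. Without M1 replicate 1, 8 genes were called lower and 2 higher, and the median was -0.09 in place of -0.50. When limma was fitted to the libraries of these groups only, 3 genes were called in M1. At an adjusted p under 0.05, the authors' deposited table calls 12 genes of the set lower and 4 higher in F1 than in vegetative apices. That is of 1335 genes called in all. In M1 it calls 14 lower and 0 higher, of 810 genes called in all.

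From week 1 to week 3 the set fell within each sex. In female apices 50 of 53 genes fell and 2 rose, with a median of -1.46, where 35.2% of all genes were called, 16.5% lower and 18.7% higher. In male apices 47 fell and 1 rose, with a median of -1.34, where 61.7% of all genes were called, 27.9% lower and 33.8% higher. By group mean, 29 of the 53 genes were highest in vegetative and 21 in F1 apices, and 43 were lowest in M3 apices.

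**Figure D3:**
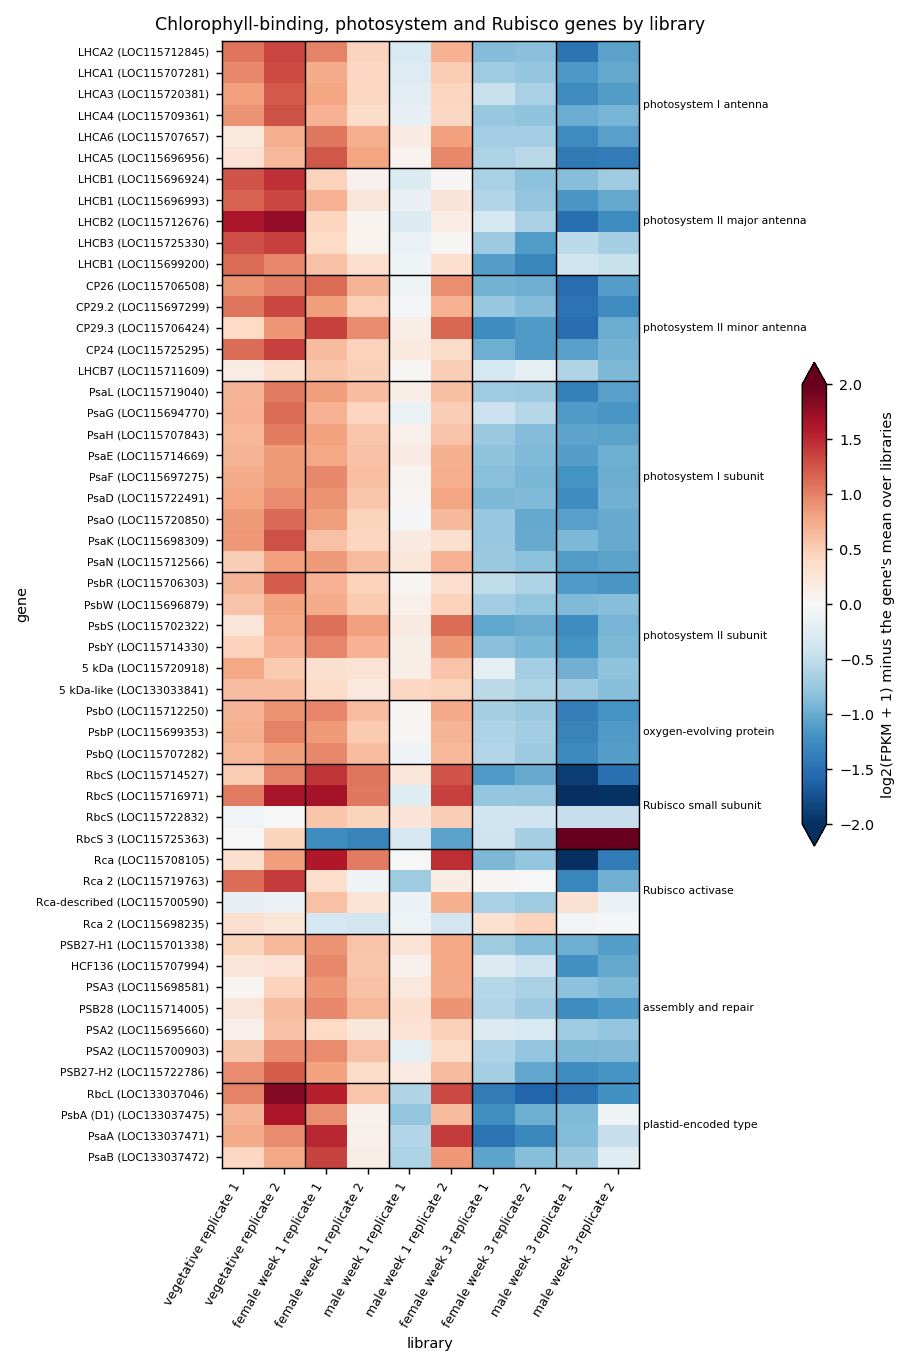
Each of the 53 tested genes (rows, grouped by role) in each of the 10 libraries (columns), as log2(FPKM + 1) minus the mean of the gene over the libraries. The 4 columns of week 3 are mostly below the mean of the gene. LOC115725363 has its highest values in the male week 3 columns, at 95.5 and 85.7 FPKM.

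The major antenna of photosystem II was lower already at week 1 in both sexes, by the medians and calls given here; other roles also had genes called lower then, among them 2 of 4 activase genes in F1 and 3 of 6 genes of the photosystem I antenna in M1. The 5 genes of the major antenna are 3 copies of LHCB1, with LHCB2 and LHCB3. LHCB2 (LOC115712676, chromosome 4) had 2214 and 2425 FPKM in vegetative apices, 966 and 743 in F1, 591 and 795 in M1, 559 and 456 in F3, and 250 and 298 in M3. Vegetative values were above all others and did not overlap with any group. The difference from vegetative was -1.45 ± 0.20 (SE; adjusted p = 0.00447) in F1 and -1.76 ± 0.20 (adjusted p = 0.00115) in M1. It was -2.20 ± 0.20 (adjusted p = 4.05e-05) in F3 and -3.08 ± 0.20 (adjusted p = 5.92e-07) in M3. These 4 calls held with each library left out.

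LHCB1 LOC115696924, the copy with the highest level, had 3787 and 4383 FPKM in vegetative apices, 2200 and 1698 in F1, 1323 and 1620 in M1, 1012 and 904 in F3, and 885 and 969 in M3. It fell by 1.08 in F1 and by 1.48 in M1. LHCB3 (LOC115725330) had 742 and 784 FPKM in vegetative apices and 398 and 318 in F1, a difference of -1.10 ± 0.17 (adjusted p = 0.00641). Without F1 replicate 2 this call of LHCB3 was lost, and that of LHCB1 was lost without that library or without vegetative replicate 2. In all, 3 of the 5 genes fell in F1 and 5 of 5 in M1, with medians of -1.08 and -1.39. In M1, the calls of LHCB1 LOC115696993 and LOC115699200 were lost without vegetative replicate 2 and without vegetative replicate 1, in that order. LOC115696924 and LOC115696993 lie next to each other on chromosome 7 in assembly ASM2916894v1, 2.12 kb apart with no listed gene between them. How reads shared by the LHCB1 copies were assigned is not given in the sources used here, so the level of each copy is uncertain.

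The minor antennas of photosystem II fell mainly by week 3. CP26 (LOC115706508) had 1672 and 1810 FPKM in vegetative apices, 1939 and 1433 in F1, 834 and 1696 in M1, 462 and 452 in F3, and 308 and 414 in M3. Its vegetative and week 1 values overlapped, and all week 3 values were lower. CP24 (LOC115725295) fell in each flowering group against vegetative, with differences of -0.70 in F1, -0.97 in M1, -2.30 in F3 and -2.26 in M3. Its call in F1 was lost without vegetative replicate 2 and without either F1 or F3 library. All 5 tested genes of this role fell in both week 3 groups, with medians of -1.93 in female and -2.26 in male apices.

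In the antenna of photosystem I, LHCA1 to LHCA4 were highest in vegetative apices and lowest in M3 by group mean. LHCA2 (LOC115712845), its gene with the highest level, had 1228 and 1476 FPKM in vegetative apices, 1167 and 795 in F1, 475 and 951 in M1, 319 and 326 in F3, and 213 and 277 in M3. Its difference from vegetative was -2.06 ± 0.30 (adjusted p = 0.000715) in F3 and -2.47 ± 0.30 (adjusted p = 6.49e-05) in M3. LHCA1 (LOC115707281) and LHCA3 (LOC115720381) also fell in M1 against vegetative, by 1.01 and by 0.92, and both calls were lost with any library other than M1 replicate 2 left out. LHCA4 (LOC115709361), named after its values were seen, had a difference of -0.96 there, with the call lost without vegetative replicate 2, M1 replicate 1 or any week 3 library. LHCA5 (LOC115696956) and LHCA6, minor members of the family, were highest in F1. All 6 genes fell in both week 3 groups.

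Subunits of photosystem I and the oxygen-evolving proteins were rarely called at week 1 and fell together at week 3. None of 9 photosystem I subunits was called in F1 and 1 in M1, PsaK (LOC115698309), with -0.82; it was named after its values were seen, and its call was lost without vegetative replicate 2 or M1 replicate 1. At week 3 all 9 fell against vegetative, with differences from -1.41 to -1.95 in female and from -1.75 to -2.07 in male apices, the narrowest range in M3 among roles of more than 3 genes. PsaL (LOC115719040), which helps dock the antenna of photosystem II at photosystem I, had 1612 and 2067 FPKM in vegetative, 612 and 605 in F3 and 395 and 476 in M3 apices. PsbO (LOC115712250), which stabilises the manganese cluster that splits water, had 1504 and 1745, 587 and 557, and 362 and 410 FPKM in the same groups. PsbP and PsbQ fell likewise, and the 3 genes had medians of -1.50 in F3 and -2.07 in M3. PsbQ (LOC115707282) lies 4.75 kb from LHCA1 (LOC115707281) on chromosome 1, with 1 listed gene between them.

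Among the other photosystem II subunits, PsbR (LOC115706303), a small protein near the oxygen-evolving site, was the most abundant. It had 3202 and 4671 FPKM in vegetative apices, 3267 and 2763 in F1, 2063 and 2539 in M1, 1417 and 1309 in F3, and 911 and 892 in M3. PsbS (LOC115702322), which triggers the release of excess light energy as heat, was highest in F1 by group mean, with 561 and 465 FPKM, against 309 and 450 in vegetative apices. That difference of 0.45 was not called. All 6 genes of this role fell in both week 3 groups. All 7 genes for assembly and repair did too, among them PSB27-H1 (LOC115701338), which takes part in photosystem II repair, with -1.34 ± 0.18 (adjusted p = 0.00042) in F3 and -1.60 ± 0.18 (adjusted p = 3.52e-05) in M3. Of these 7, 5 were highest in F1 by group mean, and none was called at week 1.

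**Figure D4:**
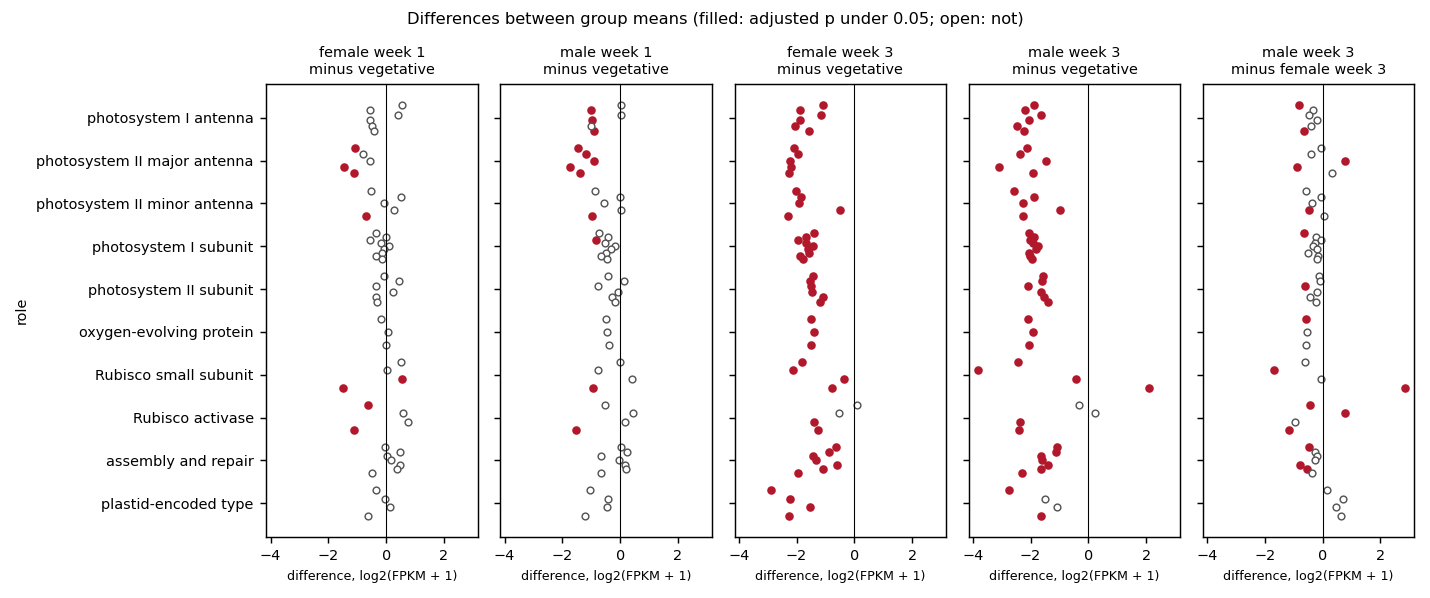
Difference between group means in log2(FPKM + 1) for each tested gene, by role, in 5 comparisons (filled points have an adjusted p under 0.05). In female week 3 minus vegetative, 51 of 53 points are filled and below 0; in male week 3 minus female week 3, 13 are filled below 0 and 3 above.

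The small subunit of Rubisco held the gene with the highest level and the gene that moved against the rest. RbcS LOC115714527 had 5561 and 7806 FPKM in vegetative apices, 10604 and 8243 in F1, 4624 and 9341 in M1, 1795 and 1946 in F3, and 1062 and 1393 in M3. By rank among all genes it stood at 3 and 2 in vegetative, and at 21 and 17 in M3 libraries. It fell by 2.32 from week 1 to week 3 in female apices and by 2.43 in male apices. RbcS LOC115716971 had 1746 and 2666 FPKM in vegetative apices, 499 and 491 in F3, and 108 and 217 in M3. Its difference of -3.81 ± 0.50 (adjusted p = 0.000105) between M3 and vegetative apices was the largest of the 53 genes in that comparison. In F3 the difference of -2.12 was not called without vegetative replicate 2, where the adjusted p was 0.0661. RbcS LOC115722832 had 159 and 166 FPKM in vegetative apices, 244 and 227 in F1, and 120 and 121 in M3. It was called lower in F3 and M3 than in vegetative apices, where its mean was 1.30 and 1.35 times theirs. It was also called lower at week 3 than at week 1 in each sex. It was the gene called higher in F1, with 0.53, and that call was lost with any of the 8 libraries other than those of M1 left out. Reads shared between RbcS copies may have been split among them, so the level of each copy is uncertain.

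LOC115725363 is described as Rubisco small subunit 3 and lies on chromosome 6, from 3135842 to 3137177, in assembly ASM2916894v1. Its closest Arabidopsis protein, a small subunit, is 53.25% identical, against 72.93% to 75.0% for the other small subunit genes. It had 17.7 and 24.2 FPKM in vegetative apices, 6.81 and 6.42 in F1, 13.7 and 7.83 in M1, 12.9 and 10.7 in F3, and 95.5 and 85.7 in M3. Both M3 values were above all others. Against vegetative it fell by 1.51 in F1, a call lost without vegetative replicate 2 or F1 replicate 2, and by 0.93 in M1, a call lost with any library but M1 replicate 1 left out. Its difference of -0.77 in F3 was not called without vegetative replicate 2, M3 replicate 1 or either F3 library. It rose by 2.84 ± 0.23 (adjusted p = 3.28e-06) in M3 against F3, by 2.08 against vegetative and by 3.00 from M1. Its change from week 1 to week 3 differed between male and female apices by 2.26 ± 0.33 (adjusted p = 0.000332), and this call held with each library left out. As a share of all small subunit FPKM it was 6.89% and 4.72% in M3 and no more than 0.531% in any other library. The tapetum and stamen markers, at 1380 and 1851 FPKM in sum, were high in the same libraries, and their part in this difference was not tested.

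Rubisco activase genes did not move as a group. LOC115708105, the activase with the highest level, had 567 and 807 FPKM in vegetative apices, 1384 and 929 in F1, 454 and 1269 in M1, 244 and 265 in F3, and 98.1 and 171 in M3. The M1 values lay on either side of the vegetative values. It fell by 2.38 in M3 and by 1.41 in F3 against vegetative, the latter call lost with any of the 4 libraries compared left out. LOC115719763, described as activase 2, had 97.6 and 118 FPKM in vegetative apices, 56.95 and 41.77 in F1, 26.7 and 49.1 in M1, 45.01 and 44.54 in F3, and 17.3 and 22.2 in M3. It fell in every flowering group against vegetative, with differences of -1.12 in F1, -1.54 in M1, -1.24 in F3 and -2.39 in M3. The call in F1 was lost with any library other than those of M1 left out, and the call in M1 without vegetative replicate 2. LOC115698235, with the same description, stayed between 1.90 and 4.19 FPKM and rose by 0.74 from F1 to F3; its fall of 0.63 in F1 against vegetative was lost with any library other than those of M1 left out. LOC115700590 is described as an activase, but its closest Arabidopsis protein is not the activase that the other 3 match.

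**Figure D5:**
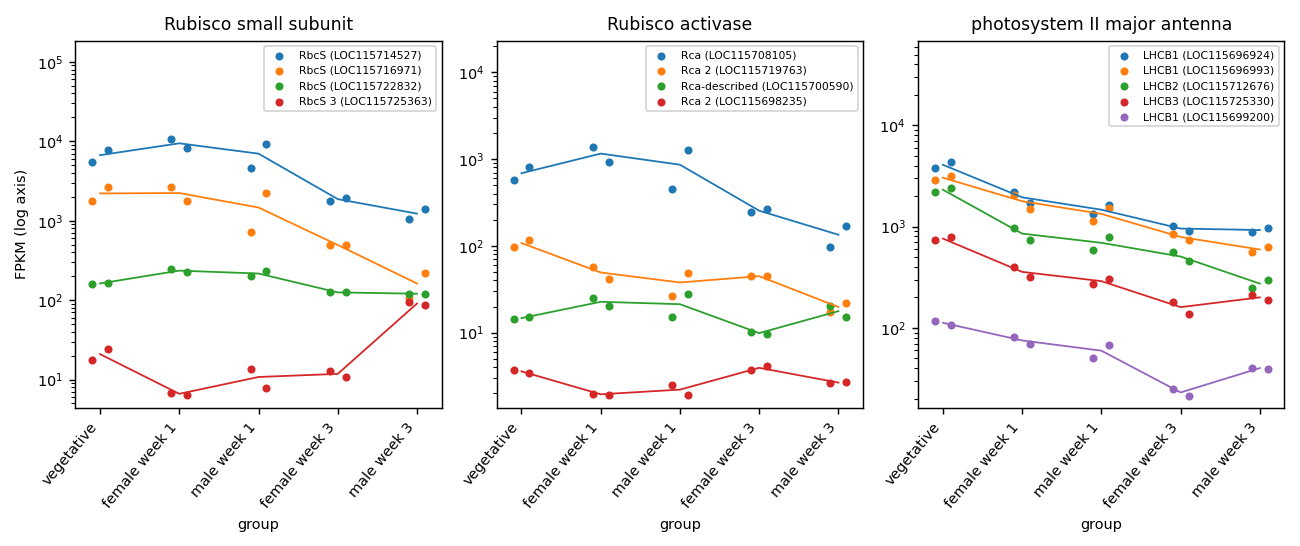
FPKM (log axis) of each gene for the Rubisco small subunit, Rubisco activase and the major antenna of photosystem II, in each library (points) with the group means joined by lines. LOC115725363 rises to 95.5 and 85.7 FPKM in male week 3, and LHCB1 LOC115699200 is higher in male week 3, at 40.7 and 39.6 FPKM, than in female week 3, at 24.8 and 21.3 FPKM.

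A further 6 genes match proteins encoded in the chloroplast genome, with 95.17% to 99.43% identity to the Arabidopsis chloroplast protein. Of these, 5 lie on chromosome 4, and the gene models of PsaA-like LOC133037471 and PsaB-like LOC133037472 overlap each other. Reads from the chloroplast and from nuclear copies cannot be told apart in these values. The RbcL-like LOC133037046, matching the large subunit of Rubisco, had 64.1 and 116 FPKM in vegetative apices, 95.6 and 47.0 in F1, 20.6 and 81.3 in M1, 11.5 and 9.95 in F3, and 10.8 and 13.3 in M3. The week 3 values were below all others. Its difference from vegetative was -2.90 ± 0.63 (adjusted p = 0.0104) in F3 and -2.75 ± 0.63 (adjusted p = 0.00661) in M3, and the former was lost without vegetative replicate 2 or F3 replicate 2. All 4 tested genes of this type fell in F3, their lowest group by mean, and 2 fell in M3.

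At week 1 no gene of the set differed between male and female apices by the calls. The limma fit called 0 of 53, with 2 at an unadjusted p under 0.05, where 0.137% of all genes were called by limma. The authors' deposited table also calls 0 of the set here, of 54 genes called in all, but its counts differ from those of limma in other comparisons. The median difference was -0.34, and it was -0.67 without M1 replicate 2 and -0.01 without M1 replicate 1. At week 3, 13 genes were lower and 3 higher in male than in female apices, with a median of -0.31, where 60.3% of all genes were called, 28.6% lower and 31.7% higher. The values did not overlap for 38 genes lower and 7 higher in male apices, against 41.9% and 41% of all genes. The count of 16 called genes was 4 without F3 replicate 1, 6 without F3 replicate 2, 5 without M3 replicate 1 and 7 without M3 replicate 2. It was 28 when the fit held these groups only. The authors' table calls 19 genes of the set lower and 7 higher in M3 than in F3, of 10356 genes called in all. Of the 13 lower genes, LHCB2, with -0.88 ± 0.20 (adjusted p = 0.00348), and activase 2 LOC115719763, with -1.15 ± 0.26 (adjusted p = 0.00337), were called with each library left out.

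The 3 genes higher in M3 were LOC115725363, LHCB1 LOC115699200 and the activase-described LOC115700590. LHCB1 LOC115699200, on chromosome 8, had 118 and 106 FPKM in vegetative apices, 81.6 and 68.9 in F1, 50.9 and 68.3 in M1, 24.8 and 21.3 in F3, and 40.7 and 39.6 in M3. Its M3 and F3 values did not overlap, and it was lower in both than in vegetative apices. The difference of M3 from F3 was 0.78 ± 0.16 (adjusted p = 0.00179), and its change from week 1 to week 3 differed between the sexes by 1.12 ± 0.22 (adjusted p = 0.00244). LOC115700590 had 10.1 and 9.68 FPKM in F3 and 20.45 and 14.97 FPKM in M3, and its difference of 0.77 was not called without either F3 library or without M3 replicate 1. LOC115725363 and LOC115699200 were the genes of the set whose change over time differed between the sexes, 2 of 53, where 45.6% of all genes tested were called for this interaction, 25.8% with the change in male apices above that in female apices (a larger rise or a smaller fall). The median of this difference over the set was 0.004. It was 0.33 without M1 replicate 2 and -0.28 without M1 replicate 1, so its direction rests on single M1 libraries.

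The genes that work beside the photosystems are set here against all genes tested, of which 36.5% were called in F3 (16.8% lower) and 62.8% in M3 (27.9% lower) against vegetative apices. Of 47 tested genes for the cytochrome b6-f complex, ferredoxin, plastocyanin, ATP synthase and the NDH complex, 38 fell and none rose in F3 against vegetative apices, and 40 fell and 2 rose in M3, with medians of -1.12 and -1.48; the genes that fell were 80.9% and 85.1% of the list. The gene described simply as plastocyanin (LOC115722357), the copper protein that carries electrons to photosystem I, went from 228 ± 45.5 FPKM (SD, n = 2) in vegetative to 37.3 ± 0.447 in F3 and 34.1 ± 2.84 in M3. Its difference was -2.56 and -2.69, and it fell by 0.86 in M1. Chlorophyll synthesis had 17 lower and 1 higher of 22 in F3, and 18 lower and 1 higher in M3, with medians of -0.94 and -1.43, among them the magnesium chelatase subunit ChlH (LOC115709882), with -1.41 in F3. Of 18 Calvin cycle genes other than Rubisco, 9 fell in F3 and 14 in M3, and 1 rose in the latter, with medians of -0.76 and -1.09. Photorespiration, which recycles the product of the oxygenase reaction of Rubisco, had 5 lower and none higher of 17 in F3. That is 29.4% lower, against 16.8% lower and 36.5% called in either direction over all genes. In M3, 13 were lower and 1 higher. The medians were -0.53 in F3 and -1.36 in M3.

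Chlorophyll breakdown genes moved in both directions, with 57.1% of them called in F3 and 71.4% in M3, against 36.5% and 62.8% over all genes: 2 higher and 6 lower of 14 in F3, and 3 higher and 7 lower in M3, with medians of -0.44 and -0.45. STAY-GREEN (LOC115716985), which starts the removal of magnesium from chlorophyll, went from 4.80 ± 0.674 FPKM in vegetative to 18.0 ± 1.54 in F3 and 22.0 ± 3.48 in M3, with differences of 1.72 and 1.98. Chlorophyllase-1 (LOC115724631) went from 91.9 ± 27.6 to 13.3 ± 0.619 and 4.66 ± 2.41 FPKM in the same groups, with -2.67 and -4.07. Of 19 regulators of chloroplast and light responses, 4 rose and 6 fell in F3, and 1 rose and 12 fell in M3, with medians of -0.07 and -1.001; the called shares were 52.6% and 68.4%, against 36.5% and 62.8% over all genes. Between M3 and F3, 13 of these 19 were lower in male apices and none higher, with a median of -0.59, where 28.6% of all genes were lower and 31.7% higher. GATA transcription factor 21 (LOC115704681), whose relatives in Arabidopsis promote chloroplast development and greening, had 19.2 ± 0.885 FPKM in F3 and 4.01 ± 0.971 in M3, with a difference of -2.02 ± 0.25 (adjusted p = 7.35e-05). HY5 (LOC115711038), a light-response factor, fell by 1.34 in F3 against vegetative.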

How the data were processed

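Messenger RNA of shoot apices was measured in 10 libraries, grouped and numbered from the labels. RNA came from a column kit with a DNase step, per the labels' protocols. Which aligner, counter and test the authors used is not given in the sources used here. As deposited by the authors, the table holds 1 value per gene and library, scaled to gene length and library depth and read here as FPKM from the values themselves; the header names no unit, and RPKM would look alike. Per the file headers, the table also holds the authors' log2 fold changes, p-values and adjusted p-values, of which only call counts are cited, and the percent identity to the closest Arabidopsis protein. Gene identifiers and coordinates are of assembly ASM2916894v1, and all 56 genes matched its RefSeq gene table. Emptied lines, 2 in number, were left out. The depth in reads is unknown, so no counting interval is given.

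The genes and lists were chosen with earlier results of these data known. The terms of the pathway lists were trimmed after the descriptions were read, before those lists were fitted. Genes whose mean reached 1 FPKM in any group, 18309 in number, were put on the log2(FPKM + 1) scale. A limma model (version 3.58.1, R 4.3.3) gave each group its mean and estimated the spread from all libraries, with trend and robust moderation (residual degrees of freedom 5, prior 4.63 at the median). The 9 contrasts were 2-sided with Benjamini-Hochberg adjustment and a threshold of 0.05. The script was tested on simulated data. Named genes were the 3 of highest mean in each role, in each comparison the called genes that rose or fell most, and those called against the majority, 38 in all; others are marked where named or listed for a role. Alternatives were a pseudocount of 0.1, no filter, no trend or robust step, scaling to the same median, a fit to the groups compared only, a replicate block, and each library left out.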

Additional observations from a re-analysis of the deposited data

Results flagged for a closer look

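For 2 genes the change from week 1 to week 3 differed between male and female apices by a test of that difference, the interaction in the limma fit with Benjamini-Hochberg adjustment. For LOC115725363, the Rubisco small subunit 3 gene, the difference of the changes was 2.26 on the log2 scale (adjusted p = 0.000332): the gene rose by 3.00 in male and by 0.74 in female apices. Both male week 3 libraries, at 95.5 and 85.7 FPKM, were above the other 8. The smaller rise in female apices was not called with any of the female or male week 3 libraries left out. For LOC115699200, an LHCB1 gene, the difference was 1.12 (adjusted p = 0.00244): the gene fell by 0.54 in male and by 1.66 in female apices. The fall in male apices was not called without male week 1 replicate 2 or without either male week 3 library. Both differences of the changes were called in all alternatives run, with each library left out included. STS treatment and male development cannot be told apart in either.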

How the results depend on the processing

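No called difference of a named gene changed direction under any alternative run. The median over the set for female week 1 against vegetative, -0.14, turned to 0.04 without female week 1 replicate 2 and to 0.00 without vegetative replicate 2. Of 324 results of named genes, 167 were called; 19 of these were lost under at least 1 setting that kept all libraries and 46 with at least 1 library left out, and of the 157 not called, 16 and 38 were gained. With only the groups compared in the fit, 3 genes were called for male week 1 against vegetative and 28 for male against female week 3. With each library left out, the counts of called genes ranged from 1 to 10 for female week 1 and from 5 to 29 for male week 1 against vegetative, from 39 to 53 and from 48 to 52 for female and male week 3 against vegetative, from 4 to 24 between the sexes at week 3, and from 2 to 11 for the interaction; the cause was not tested. They ranged from 42 to 53 between the weeks in female and from 44 to 52 in male apices, and stayed at 0 between the sexes at week 1. The share of total FPKM without the gene of highest mean was 5.83%, 4.69%, 2.04% and 1.27% in vegetative, female week 1, female week 3 and male week 3 libraries, and 2.45% in female week 3 with the total taken without its 10 highest genes. Scaling to the same median moved the median of all genes by less than 0.1. Between groups, the replicate differences had correlations over genes from -0.417 to 0.215, with no common sign. With 1 difference a group, these cannot show whether same-numbered libraries were handled together. The number was not used as a block in the main fit. The lowest, -0.417, was between F1 and M1, where replicate 1 of each deviated with replicate 2 of the other. Whether those libraries were handled together is unknown. With a replicate block, 6, 10, 48 and 49 genes were called in F1, M1, F3 and M3 against vegetative. The same fit called 0 for M1 against F1 and 16 for M3 against F3. It called 52 for F3 against F1, 47 for M3 against M1, and 2 for the interaction. A crossed replicate block at week 1, chosen after seeing the data, called 8 genes of all tested and 0 of this set. Low values are imprecise, and the depth in reads is unknown.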
